A study of Mus musculus with 40 samples.

Results

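Of 18193 genes measured on 40 arrays of mouse mammary tissue, 77 were far above the resting gland in invasive tumours while the means of the 5 groups of month glands stayed near the resting level. The genes were selected on 2 values of their log2 intensity. The mean of the 5 invasive tumours had to exceed the mean of the 10 control arrays by at least 2.5, and the means at 1M, 2M, 3M, 4M and 5M had each to lie within 1 of the control mean. Each gene with exactly 1 symbol was represented by the probe set whose mean over the 40 arrays was highest. Symbols starting with Col, Mmp, Ccl, Cxcl, Wnt and Hox were left aside, which removed 5 genes that met both values (Cxcl1, Cxcl2, Cxcl3, Wnt7b and Col8a2). The differences of tumours and months from the controls therefore describe the genes that were chosen and carry no test.

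Mammary tissue of 40 mice was analysed, 1 Affymetrix array per mouse, in 8 groups of 5. The controls were wild type BalbC mice (wild_type) and WAP-TNP8 mice before activation of the oncogene (before_activation). WAP-TNP8 mice carry the SV40 T/t-antigen under the WAP promoter, a milk protein promoter that is active in mammary epithelial cells and is switched on by lactation. Glands of such mice were taken 1 to 5 months after that lactation (1M to 5M, called month glands here, 25 arrays), and the last group comprised invasive tumours (called tumours 1 to 5 by their replicate number). The tumours came from mice at 4 or 5 months after lactation, the same times as the 4M and 5M glands. All groups apart from wild_type carried the transgene, and wild type glands that had been through a lactation are not among the labelled groups, so an active transgene and a past lactation cannot be told apart. The labels give neither the age of the mice nor the number of tumours per mouse.

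In this model the large T-antigen is known for binding the Rb protein and p53, which frees E2F factors and drives cells into the cycle. Lesions confined to the ducts precede invasive carcinoma, in which tumour cells leave the duct and meet stroma, and in which parts of the tissue can outgrow their blood supply. Growth factor signalling through receptor kinases, the response to low oxygen and the re-expression of embryonic genes are textbook features of invasive carcinoma, and the 77 genes are ordered below by roles of this kind. The roles were assigned after the genes were known.

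The regions upstream of the start sites are shown for the genes on which the results below turn, because their levels left the floor of the array in some tumours and stayed there in others, or in the case of Car9 differed among tumours while exceeding every control. RefSeq start sites were found for 60 of the 77 genes. The 250 bases before each start are given 5′ to 3′ on the strand of the gene (GRCm38.p6), and capitals mark matches on either strand to short motifs. Car9 lies at chr4:43506776-43507025 (+ strand). Cdkn2a has 2 start sites, at chr4:89282193-89282442 and chr4:89294620-89294869 (- strand). Epha2 lies at chr4:141300971-141301220 (+ strand), Hmga2 at chr10:120476470-120476719 (- strand), Phlda2 at chr7:143502525-143502774 (- strand) and Padi4 at chr4:140774204-140774453 (- strand).
Car9: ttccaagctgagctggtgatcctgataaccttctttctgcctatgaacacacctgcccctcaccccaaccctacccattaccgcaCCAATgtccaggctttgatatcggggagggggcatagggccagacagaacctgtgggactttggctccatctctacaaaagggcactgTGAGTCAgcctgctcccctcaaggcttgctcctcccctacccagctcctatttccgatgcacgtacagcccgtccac
Cdkn2a, first site: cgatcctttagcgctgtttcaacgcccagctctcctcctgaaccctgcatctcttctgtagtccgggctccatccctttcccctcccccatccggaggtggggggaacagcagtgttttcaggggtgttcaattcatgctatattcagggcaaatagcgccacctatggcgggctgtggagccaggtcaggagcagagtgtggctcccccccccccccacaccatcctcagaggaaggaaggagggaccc
Cdkn2a, second site: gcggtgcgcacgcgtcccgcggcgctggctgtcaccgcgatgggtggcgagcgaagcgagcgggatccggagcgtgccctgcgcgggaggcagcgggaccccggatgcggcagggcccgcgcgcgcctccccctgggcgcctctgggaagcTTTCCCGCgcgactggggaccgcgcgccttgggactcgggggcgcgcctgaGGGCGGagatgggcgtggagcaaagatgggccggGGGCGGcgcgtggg
Epha2: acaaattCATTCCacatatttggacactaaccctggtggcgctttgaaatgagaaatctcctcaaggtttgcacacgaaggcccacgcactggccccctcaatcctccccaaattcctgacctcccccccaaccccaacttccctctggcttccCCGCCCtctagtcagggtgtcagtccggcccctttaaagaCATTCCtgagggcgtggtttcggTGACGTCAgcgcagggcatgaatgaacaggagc
Hmga2: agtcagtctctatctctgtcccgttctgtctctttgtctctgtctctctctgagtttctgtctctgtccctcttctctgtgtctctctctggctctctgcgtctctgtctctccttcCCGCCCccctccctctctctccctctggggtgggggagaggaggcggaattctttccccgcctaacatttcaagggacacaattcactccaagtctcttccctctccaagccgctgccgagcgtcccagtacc
Phlda2: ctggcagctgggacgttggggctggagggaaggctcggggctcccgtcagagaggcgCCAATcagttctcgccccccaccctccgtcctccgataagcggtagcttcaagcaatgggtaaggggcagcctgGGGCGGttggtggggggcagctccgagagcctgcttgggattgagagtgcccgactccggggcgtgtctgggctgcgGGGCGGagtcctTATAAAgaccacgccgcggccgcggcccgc
Padi4: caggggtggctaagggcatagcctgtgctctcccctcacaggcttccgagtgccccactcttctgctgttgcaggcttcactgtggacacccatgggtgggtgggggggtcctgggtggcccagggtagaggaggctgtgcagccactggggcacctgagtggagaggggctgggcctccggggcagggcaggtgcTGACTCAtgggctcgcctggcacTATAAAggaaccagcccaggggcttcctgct

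The motifs searched in the 300 bases around each start (250 before, 50 after) were read on both strands, and none is part of another. They were the AP-1 motif with the letters TGANTCA, the cyclic AMP element CRE with TGACGTCA, and the E2F motif with TTTGGCGC or TTTCCCGC. The core promoter motifs were the TATA box, spelled TATAAA, the box spelled CCAAT and the GC box, spelled GGGCGG. The E-box was spelled CACGTG, the STAT motif TTCNNNGAA and the TEAD motif GGAATG. An AP-1 match was present in Car9 and Padi4, a CRE and a pair of TEAD matches in Epha2, an E2F match in the GC-rich second site of Cdkn2a, and TATA matches in Phlda2 and Padi4. Over the 60 genes the shares were close to those of all 14364 measured genes with a start site. AP-1 was found in 10% of the 60 and 7.5% of all genes, CRE in 5% and 2.94%, E2F in 1.67% and 2.77%, and TATA in 15% and 11.5%. The CCAAT box was found in 46.7% and 42.0%, the E-box in 10% and 10.3%, and the GC box in 66.7% and 57.5%. STAT was found in 6.67% and 8.57%, and TEAD in 18.3% and 15.3%. Such a match describes letters in a window and not binding.

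The 77 genes differed from the controls by 2.5 to 6.11 on the log2 scale, with a median of 3.02. Most were dim in the resting gland: 48 of 77 (62.3%) had a control mean below 5, near the floor of the array summaries, compared with 34.3% of the 455 other genes that reached 2.5 in tumours and 38.3% of all genes. The size of a fold change from there is set in part by the floor. In 39 of the 77 genes all 5 tumours lay above all 10 controls, which held for 9.33% of all genes, and in 24 all 5 tumours lay above all 35 other arrays, which held for 3.36% of all genes. Both counts come from the contrast that selected the genes. Among the 24 were C1qtnf3, Slc38a3, Car9, Tyms, Aldh1l2, Aopep and Pimreg.

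**Figure D1:**
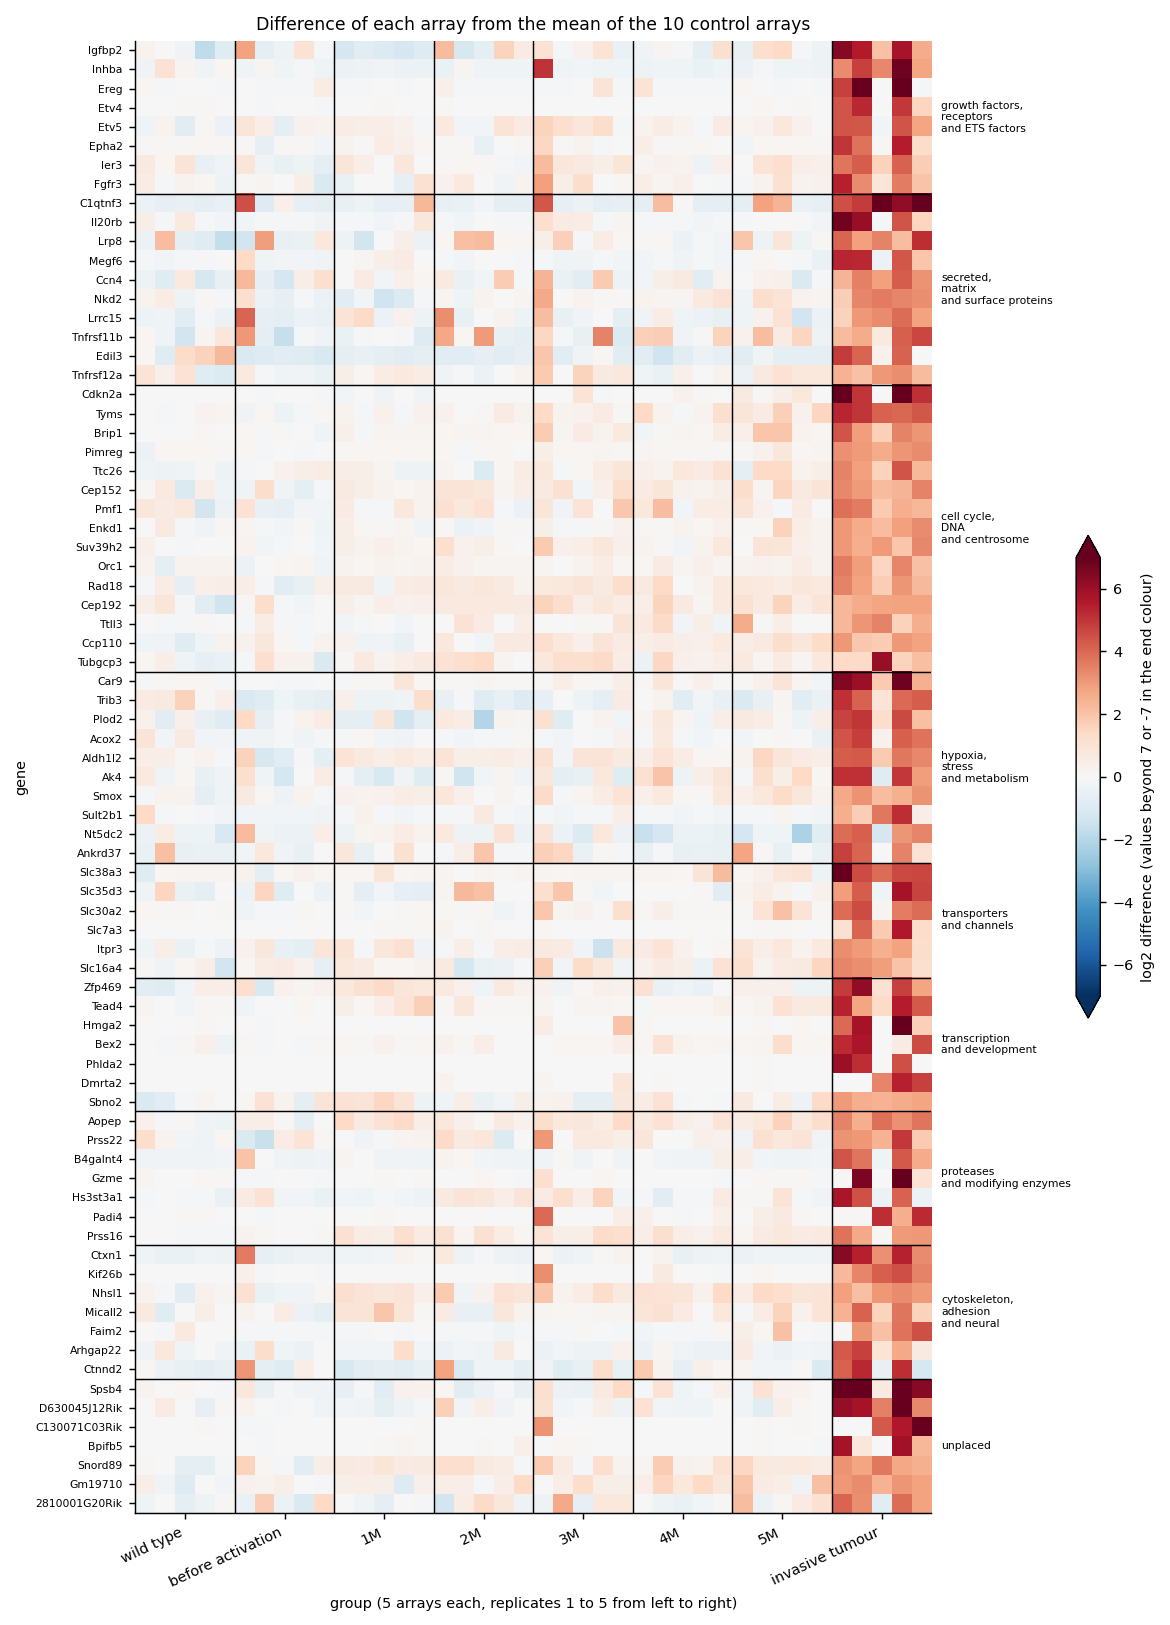
Heat map of the difference of each array (columns, 5 per group, replicates 1 to 5 from left to right) from the mean of the 10 controls (log2, colour) for the 77 genes (rows, ordered by role). The tumour columns are high except for many genes in tumour 3. The single gland array 3M 1 is at least 2.5 above the control mean in 8 genes, beside 1.69% of all genes. Control array before_activation 1 is so in 6, beside 0.56% of all genes.

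The 5 tumours were not alike. At least 2.5 above the control mean were 61 of the 77 genes in tumour 1, 68 in tumour 2, 26 in tumour 3, 69 in tumour 4 and 47 in tumour 5. Over all 18193 genes the share past this difference was 3.68 to 4.12% on the tumour arrays, with tumour 3 lowest by a small margin. The SD over the 5 tumours had a median of 1.71 for the 77 genes, compared with 0.47 for the 455 other genes that reached 2.5 in tumours and 0.34 for all genes.

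In 33 of the 77 genes at least 1 tumour lay within 1 of the control mean. The most frequent pattern, in 24 genes, was a level at least 2.5 above the controls in tumours 1, 2 and 4 and within 1 of them in tumour 3. A further 3 genes (Dmrta2, Padi4 and C130071C03Rik) were near the controls in tumours 1 and 2. Only 9 genes were at least 2.5 above the controls in all 5 tumours, namely C1qtnf3, D630045J12Rik, Slc38a3, Ctxn1, Tyms, Inhba, Aopep, Pimreg and Snord89. Another probe set of D630045J12Rik was at 2.03 in tumour 3, near its control mean of 2.06. Tumour 3 was the lowest of the 5 tumours in 47 genes.

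**Figure D2:**
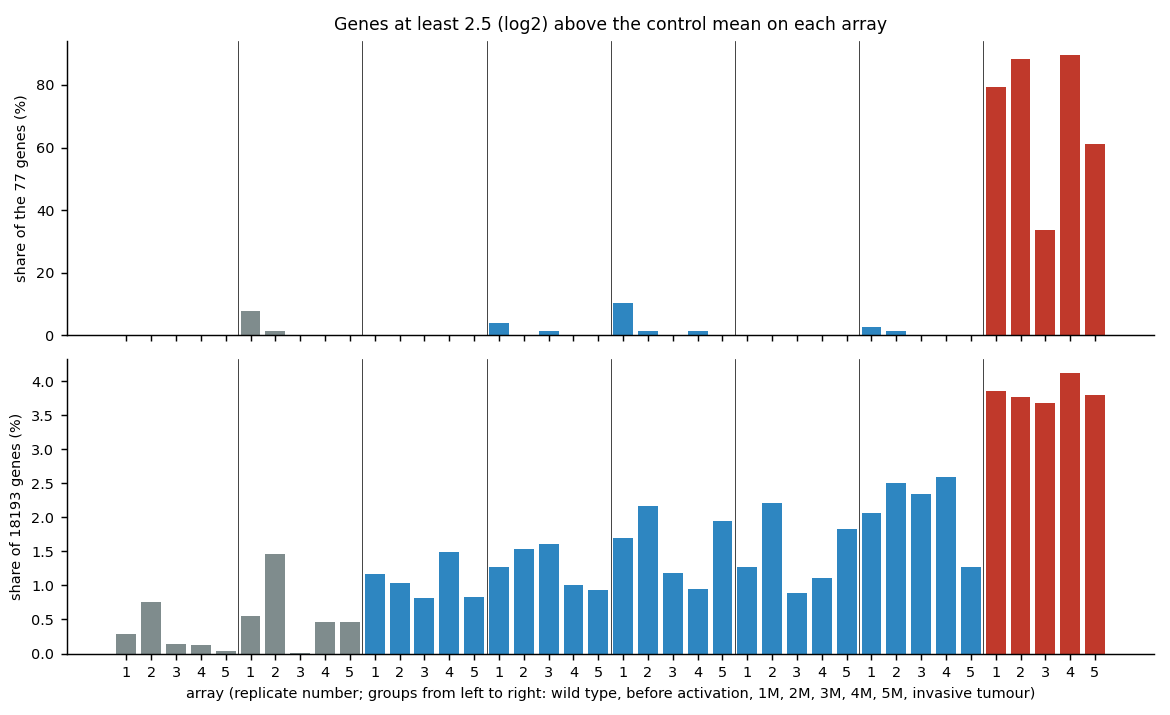
Share of genes at least 2.5 (log2) above the control mean on each of the 40 arrays, for the 77 genes (upper panel) and all 18193 genes (lower panel, other scale). Among the 77 genes the tumours range from 33.8% in tumour 3 to 89.6% in tumour 4, whereas over all genes they lie between 3.68 and 4.12%.

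Cell type markers also differed among the tumours. On the linear scale, the summed intensity of the 4 measured adipocyte markers (Cfd and Plin1 not measured) was 17853 in tumour 1, 33820 in tumour 2, 75403 in tumour 3, 47389 in tumour 4 and 58935 in tumour 5, against 154728 to 247356 in the controls. The sum of 5 fibroblast markers was 10954 in tumour 3 and 4155 to 10538 in the others, against 66866 to 98463 in the controls. That of 4 B and plasma cell markers was 11024 in tumour 3 and 396 to 4778 in the others, against 408 to 18195 in the controls. Of these 4, Cd79a, Ms4a1 and Mzb1 were near the floor in the tumours, which leaves Jchain as the bright marker. The 6 luminal epithelial markers summed to 137307 in tumour 3, the highest of the 5, and the 4 measured markers of dividing cells to 43193, within the range of 34084 to 58801 of the others. Tumour 3 thus held high levels of luminal and dividing-cell markers. Its adipocyte, fibroblast, and B and plasma cell sums were the highest of the 5 tumours, but the adipocyte and fibroblast sums were below every control. The part of tissue composition in the pattern of tumour 3 was not tested, and in bulk tissue fewer cells of a type and less RNA per cell cannot be told apart. Of the other marker lists, basal and myoepithelial markers were low in all tumours (5258 to 9727 against 24770 to 49710 in the controls). The 5 measured neutrophil markers summed to 2927, 1033, 146, 529 and 277 in tumours 1 to 5, against 104 to 160 in the controls. Of these, Ngp and Camp were near the floor in the tumours. Macrophage markers summed to 8977, 20811, 22326, 29768 and 16033 in tumours 1 to 5, against 15100.5 to 26332 in the controls. The part of these cells in the tumour patterns was not tested.

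Growth factors, their receptors and the ETS factors that act downstream of them formed a group of 8 genes, with a median difference of 3.18. Ereg encodes epiregulin, a ligand of the EGF receptor. Its log2 intensity was 7.81, 10.11, 2.97, 10.49 and 2.92 in tumours 1 to 5, compared with 2.89 to 3.52 (median 2.96) in the controls and 2.87 to 3.95 (median 2.94) in the month glands. Tumours 1, 2 and 4 lay above every other array, and tumours 3 and 5 within the range of the controls. The mean was 14.4-fold above the controls, and the SD of 3.72 was the highest of all 77 genes.

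Etv4 and Etv5 encode ETS transcription factors of the PEA3 family, which are known targets of receptor kinase signalling. Etv4 was at 6.71, 7.58, 2.30, 7.26 and 3.82 in tumours 1 to 5, at 2.23 to 2.38 (median 2.31) in the controls and at 2.26 to 2.43 (median 2.32) in the month glands. Etv5, bright in every group, was at 13.19, 13.13, 8.63, 13.20 and 11.56 in the tumours, at 8.0 to 9.63 (median 8.95) in the controls and at 8.63 to 10.35 (median 9.23) in the month glands. Both were at the control level in tumour 3 and intermediate in tumour 5. Another Etv5 probe set with a tumour mean of 7.58 gave 9.21, 8.25, 3.51, 9.31 and 7.61, the same low tumour.

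Epha2, a receptor tyrosine kinase for ephrins, was likewise lowest in tumour 3, with 9.40, 8.17, 4.48, 9.87 and 5.67 in tumours 1 to 5, against 3.83 to 4.51 (median 4.48) in the controls and 3.86 to 5.83 (median 4.48) in the month glands. Fgfr3, a receptor of fibroblast growth factors, was at 11.82, 9.67, 7.21, 9.95 and 8.38 in tumours, at 5.32 to 6.86 (median 6.47) in controls and at 5.80 to 9.25 (median 6.58) in month glands. All 5 tumours were above the controls for Fgfr3, but gland array 3M 1, at 9.25, exceeded tumours 3 and 5. Ier3, an immediate early gene, was already bright in the controls (9.97 to 11.50) and reached 12.22 to 14.83 in the tumours.

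Inhba encodes the subunit of activin A. Its intensity was 6.17, 7.68, 6.27, 9.70 and 5.63 in tumours 1 to 5 and 2.59 to 3.88 (median 2.71) in the controls, so all tumours exceeded all controls. In the month glands it was 2.41 to 7.92 (median 2.58), and the highest of these values, in 3M 1, exceeded 4 of the 5 tumours. Igfbp2, a secreted binding protein of insulin-like growth factors, was at 13.83, 12.94, 9.45, 13.18 and 9.9995 in tumours, at 5.61 to 10.20 (median 7.21) in controls and at 6.20 to 9.63 (median 7.26) in month glands. Here tumours 3 and 5 fell within the range of the controls, whose highest value came from before_activation 1.

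The other genes of these families did not follow as a group. In limma, with Benjamini-Hochberg adjustment over all probe sets, 19.5% of all genes were higher in tumours than in controls at an adjusted p of at most 0.05, and 20.6% were lower. Of 107 other genes of the list of growth factors and their receptors, 8 were higher and 35 lower. Hbegf, another ligand of the EGF receptor, differed by 4.08 ± 0.62 (standard error, adjusted p = 0.000109) and Bmp1 by 1.72 ± 0.37 (adjusted p = 0.00211), while Gdf10 (-5.41 ± 0.25) and Vegfd (-5.28 ± 0.29) fell. Of 52 other receptor tyrosine kinases and phosphatases 8 were higher, among them Tyro3 (2.70 ± 0.27), and 17 lower, among them Pdgfra (-2.49 ± 0.19). Of 79 other ephrin, semaphorin and guidance genes 12 were higher and 23 lower.

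Secreted, matrix and surface proteins made up 10 genes with a median difference of 3.16. C1qtnf3, a secreted protein of the C1q and TNF related family, differed by 6.11, from controls that were mostly near the floor of the array, and by 4.53 with values below 5 set to 5. It was at 8.27, 8.63, 11.25, 9.92 and 11.19 in tumours 1 to 5, at 2.86 to 8.25 (median 3.18) in the controls and at 3.03 to 8.08 (median 3.22) in the month glands. All tumours exceeded all other arrays, although tumour 1 (8.27) was hardly above before_activation 1 (8.25). Tumours 3 and 5, which were within the control range for Ereg and Igfbp2, were the highest 2 for C1qtnf3.

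Ccn4, a matricellular protein induced by Wnt signalling, was at 6.57, 7.72, 7.09, 8.46 and 7.34 in tumours and at 3.03 to 6.48 (median 3.76) in controls. Nkd2, which binds Dishevelled and restrains Wnt signalling, was at 7.04, 8.76, 8.97, 8.78 and 8.59 in tumours and at 4.76 to 6.47 (median 5.22) in controls. For both genes all tumours were above all controls, whereas the highest gland array, 3M 1 in either case, reached 6.61 for Ccn4 and 7.98 for Nkd2 and so passed tumour 1. Tnfrsf12a, the receptor of the cytokine TWEAK, was at 10.59 to 11.83 in tumours and 7.60 to 9.59 in controls, and all 5 tumours were above all 35 other arrays.

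Lrrc15, a membrane protein of stromal cells, was at 9.59, 11, 11.29, 11.91 and 10.83 in tumours and at 7.24 to 12.05 (median 7.58) in controls. No tumour exceeded all controls for this gene, since before_activation 1 was higher than every tumour. Tnfrsf11b, the soluble decoy receptor osteoprotegerin, was at 7.14, 7.52, 5.58, 9.12 and 9.61 in tumours and at 3.29 to 7.96 (median 4.76) in controls, so that tumours 4 and 5 exceeded all controls and the other 3 did not. Edil3, an integrin-binding matrix protein, was high in tumours 1, 2 and 4 (9.28, 8.46 and 8.52) and at 4.68 and 4.44 in tumours 3 and 5, inside the control range of 3.34 to 6.70. Il20rb, a receptor chain for interleukins of the IL-20 family, was at 9.58, 8.93, 2.72, 7.26 and 4.36 in tumours and at 2.60 to 3.51 (median 2.74) in controls. Of 72 other interleukin and interleukin receptor genes 5 were higher in tumours, led by Il1b (4.95 ± 0.39, adjusted p = 2.48e-07) and Il1rap (3.13 ± 0.25), and 12 lower. Of 33 other genes of the TNF superfamily 5 were higher and 5 lower.

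**Figure D3:**
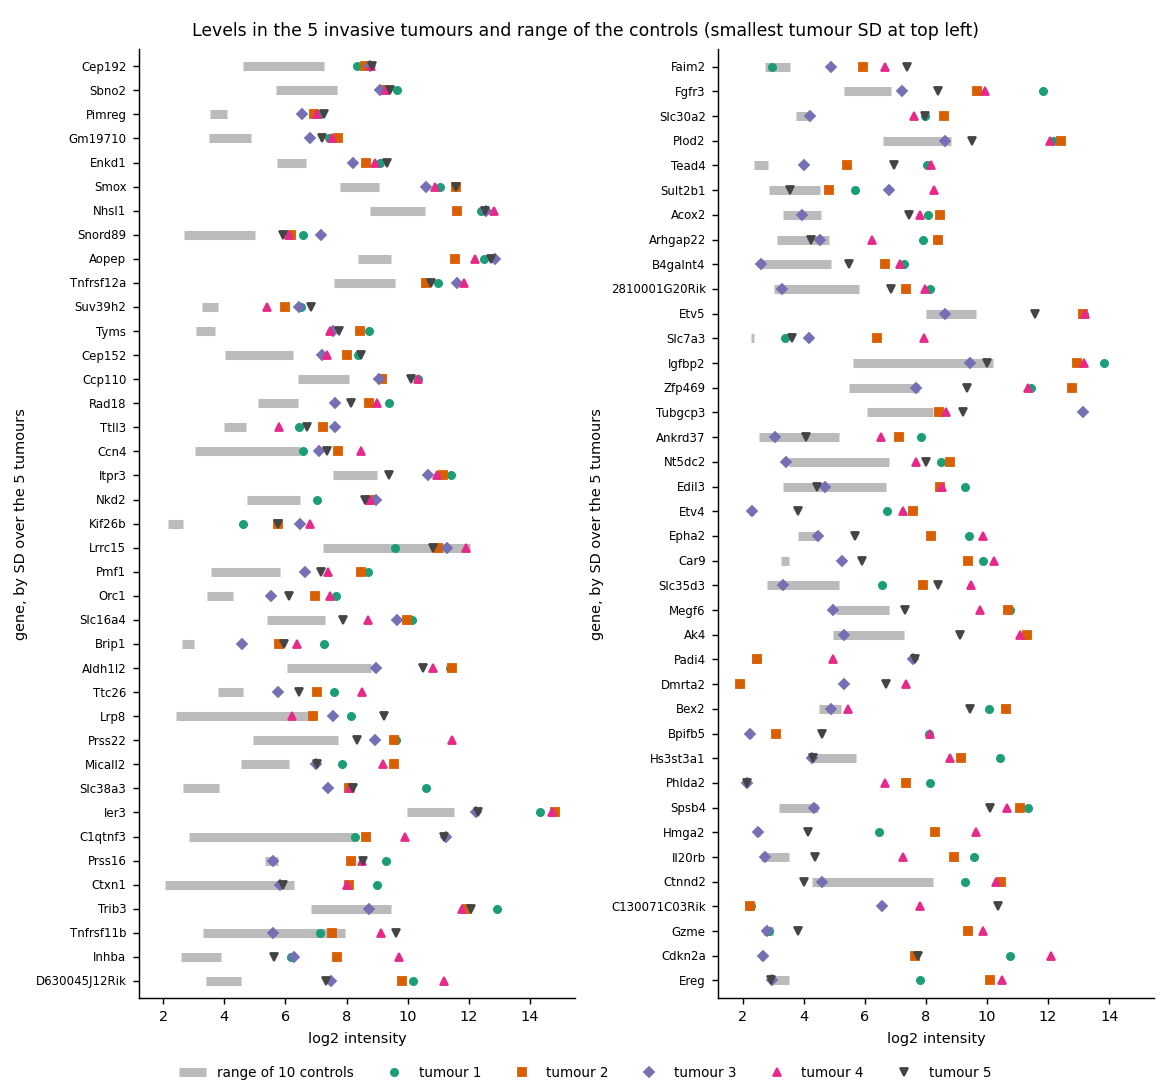
Log2 intensity of the 77 genes (rows, ordered by the SD over tumours) in the 5 tumours (coloured symbols) beside the range of the 10 controls (grey bars). Cep192, Sbno2 and Pimreg lie close together in all tumours, whereas Ereg, Cdkn2a and Gzme range from the control level to 5 or more above it.

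Genes of the cell cycle, DNA metabolism and the centrosome formed the largest role group, with 15 genes and a median difference of 2.78. It was also the most even: the median SD over tumours was 0.69, compared with 1.28 to 2.59 in the other role groups. All 5 tumours exceeded all controls in 14 of the 15 genes, beside 9.33% of all genes, a count from the contrast that selected them. Tyms, the thymidylate synthase of DNA precursor synthesis, was at 8.73, 8.43, 7.54, 7.46 and 7.75 in tumours, at 3.06 to 3.70 (median 3.45) in controls and at 3.30 to 5.07 (median 3.71) in month glands. The lowest tumour was thus more than 2 above the highest other array. Pimreg, a mitotic protein, was at 7.14, 6.92, 6.55, 7.03 and 7.26 in tumours and at 3.53 to 4.10 in controls, with month glands up to 4.77.

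By the probe sets that stand for them, the centrosome genes were also even. Cep192, a scaffold of the pericentriolar material, was at 8.34, 8.59, 8.75, 8.81 and 8.84 in tumours, with the smallest SD of the 77 genes (0.21), against 4.63 to 7.25 (median 5.98) in controls. Another Cep192 probe set was less even, at 8.76, 9.02, 7.04, 7.72 and 6.18 in tumours 1 to 5. Cep152, which acts in centriole duplication, was at 7.20 to 8.46 in tumours and 4.01 to 6.23 in controls, and Ccp110, a cap protein of centrioles, at 9.08 to 10.33 and 6.42 to 8.09. Orc1, a subunit of the origin recognition complex, was at 5.52 to 7.65 in tumours and 3.42 to 4.30 in controls. Rad18, a ubiquitin ligase of DNA damage tolerance, was at 7.63 to 9.38 and 5.09 to 6.41. In each of these 5 genes the tumours were above all 35 other arrays. Tubgcp3, a component of the gamma-tubulin ring complex, stood apart with 13.14 in tumour 3 and 8.42 to 9.20 in the others, so that its difference of 2.5 fell to 1.61 without tumour 3.

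Cdkn2a was the exception among the cell cycle genes. The locus encodes p16Ink4a, an inhibitor of the Cdk4 and Cdk6 kinases, and p19Arf, which stabilises p53, from separate first exons. It was at 10.75, 7.63, 2.66, 12.10 and 7.75 in tumours 1 to 5, at 2.56 to 2.69 (median 2.66) in the controls and at 2.32 to 3.61 (median 2.65) in the month glands. Tumours 1, 2, 4 and 5 exceeded every other array by more than 4, and tumour 3 was inside the control range. The mean difference of 5.54 (46.4-fold) had an SD over tumours of 3.64, and the tumours spanned 9.44 on the log2 scale. Measured markers of dividing cells summed to 43193 in tumour 3, the second highest of the 5 tumours.

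Of the 179 other genes in the list of cyclins, kinases and mitotic genes, 93 (52.0%) were higher in tumours at an adjusted p of at most 0.05, beside 19.5% of all genes, and 22 were lower. Kif4 (5.96 ± 0.24, adjusted p = 7.9e-10) and Cdc45 (4.37 ± 0.21, adjusted p = 3.73e-09) are examples. Some of the 77 genes had a second probe set that was already raised in the month glands. A second probe set of Orc1 was 5.56 above the controls in tumours and up to 2.33 in a month, one of Cep192 3.92 and up to 1.55, and those of Rad18 up to 3.73 and 1.51. By those probe sets the 3 genes would not have met the month limit.

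Genes of hypoxia, stress and metabolism numbered 10, with a median difference of 3.47. Car9, a membrane carbonic anhydrase that is a known target of the hypoxia-inducible factor, was at 9.87, 9.39, 5.25, 10.22 and 5.90 in tumours 1 to 5, at 3.27 to 3.53 (median 3.43) in controls and at 3.24 to 4.33 (median 3.51) in month glands. All tumours exceeded all other arrays, and tumours 3 and 5 were the lowest of the 5. Ak4, a mitochondrial adenylate kinase, was at 11.25, 11.29, 5.33, 11.09 and 9.11 in tumours and at 4.95 to 7.30 (median 6.04) in controls. Ankrd37, a hypoxia-induced ankyrin protein, was at 7.85, 7.12, 3.07, 6.53 and 4.09 in tumours and 2.53 to 5.17 (median 2.71) in controls. Plod2, the lysyl hydroxylase that prepares collagen for cross-linking, was at 12.16, 12.43, 8.62, 12.07 and 9.5 in tumours and at 6.60 to 8.80 (median 7.48) in controls. In all 4 genes tumours 1, 2 and 4 were the highest and tumour 3 the lowest.

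The rest of the hypoxia and glycolysis list was mixed. Of its 40 other genes 7 (17.5%) were higher in tumours and 11 (27.5%) lower, beside 19.5% and 20.6% of all genes. Loxl3 (1.74 ± 0.19) and Ndrg1 (1.59 ± 0.20) were higher, and Bnip3 (-3.07 ± 0.25) and Pfkfb3 (-4.56 ± 0.38) lower. Trib3, a pseudokinase induced by amino acid and endoplasmic reticulum stress, was at 12.93, 11.93, 8.73, 11.79 and 12.07 in tumours and at 6.82 to 9.46 (median 7.71) in controls. Aldh1l2, a mitochondrial enzyme of folate metabolism, was at 11.39, 11.46, 8.97, 10.83 and 10.50 in tumours and at 6.05 to 8.79 (median 7.13) in controls, with all tumours above all other arrays. Smox, the spermine oxidase, was even over the tumours (10.59 to 11.59, controls 7.79 to 9.06).

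Of 6 transporters and channels, 5 had all tumours above all controls, beside 9.33% of all genes, again a count from the contrast that selected them. Slc38a3, a glutamine transporter, was at 10.59, 8.07, 7.40, 8.12 and 8.21 in tumours, at 2.63 to 3.83 (median 3.66) in controls and at 3.13 to 5.71 (median 3.68) in month glands, a mean difference of 4.97 (31.4-fold). Slc7a3, a transporter of cationic amino acids, was at 3.40, 6.39, 4.18, 7.95 and 3.62 in tumours and at 2.28 to 2.37 in controls, with month glands up to 2.59. Slc30a2, which moves zinc into the secretory vesicles of the mammary cell, was at 7.96, 8.58, 4.21, 7.60 and 7.96 in tumours and 3.75 to 4.15 in controls, so that tumour 3 was hardly above the highest control. Of 342 other solute carriers 41 (12%) were higher in tumours and 84 (24.6%) lower. Slc7a5, a transporter of large neutral amino acids, was higher by 4.58 ± 0.48 (adjusted p = 3.6e-06), and Slc2a4, the insulin-responsive glucose transporter of fat and muscle, lower (-5.96 ± 0.35).

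The 7 genes of transcription and development had the highest median SD over tumours of all role groups, 2.59, and a median difference of 3.22. Hmga2, a chromatin protein of the embryo, was at 6.48, 8.31, 2.5, 9.64 and 4.15 in tumours 1 to 5, at 2.42 to 2.59 (median 2.49) in controls and at 2.45 to 4.47 (median 2.52) in month glands. Tumour 3 was inside the control range, and tumour 5 was below the highest month gland. Other probe sets of Hmga2 gave tumour 4 as highest (10.53 and 9.71) and tumour 3 as lowest (2.23 and 1.91). Phlda2, an imprinted gene that restrains growth of the placenta, was at 8.13, 7.36, 2.15, 6.67 and 2.16 in tumours, at 2.12 to 2.19 in controls and at 2.13 to 2.22 in month glands. Tumours 1, 2 and 4 were more than 4 above any other array, and tumours 3 and 5 were at the floor. None of 20 other oncofetal and imprinted genes was higher in tumours in limma at an adjusted p of at most 0.05, and 7 were lower, among them Cdkn1c (-3.49 ± 0.41) and Grb10 (-2.65 ± 0.28).

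Tead4, a partner of the Yap coactivator, was at 8.03, 5.41, 3.99, 8.16 and 6.95 in tumours and at 2.38 to 2.85 (median 2.69) in controls. Bex2, an X-linked gene of neural tissues, had another order, with 10.07, 10.61, 4.88, 5.45 and 9.45 in tumours and 4.50 to 5.23 in controls. Dmrta2, a transcription factor of the developing forebrain, was at 1.93, 1.92, 5.33, 7.36 and 6.69 in tumours, at 1.86 to 1.95 in controls and at 1.89 to 2.77 in month glands. It was therefore at the floor in tumours 1 and 2, where most of the 77 genes were high, and raised in tumours 3 to 5.

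Proteases and modifying enzymes numbered 7, with a median difference of 2.94. Padi4, which converts arginine of histones to citrulline, was at 2.48, 2.47, 7.58, 4.95 and 7.64 in tumours, at 2.31 to 2.48 (median 2.41) in controls and at 2.34 to 6.39 (median 2.43) in month glands. It was near the control level in tumours 1 and 2 and highest in tumours 3 and 5, where Ereg and Phlda2 were at the control level, while tumour 4 was raised for all 3 genes. Gzme, a granzyme of killer lymphocytes, was at 2.88, 9.38, 2.80, 9.88 and 3.81 in tumours and at 2.68 to 2.98 (median 2.79) in controls, so that it was high in tumours 2 and 4. The sum of 3 measured T cell markers (Lck and Trbc1 not measured) was 47.8 in tumour 2 and 45.1 in tumour 4, compared with 20.9 to 92.3 in the others. All 3 markers were below the floor level of 5 (log2) in the tumours, so these sums cannot compare the tumours for lymphocytes. Aopep, an aminopeptidase, was even over the tumours (12.49, 11.55, 12.85, 12.19 and 12.73, controls 8.37 to 9.45). Prss22, a tryptase, was at 9.62, 9.54, 8.92, 11.43 and 8.33 in tumours and at 4.93 to 7.71 (median 6.60) in controls, and gland array 3M 1 reached 9.51. Of 124 other serine proteases and serpins 8 were higher in tumours, led by St14 (2.63 ± 0.27), and 17 lower, led by Htra1 (-3.41 ± 0.25).

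The cytoskeletal, adhesion and neural genes (7 genes, median difference 2.71) included Ctxn1, a neuronal membrane protein, at 8.99, 8.09, 5.83, 8.02 and 5.93 in tumours and at 2.05 to 6.28 (median 2.27) in controls, and Ctnnd2, a delta-catenin of neurons, at 9.29, 10.44, 4.60, 10.28 and 4.00 in tumours and at 4.28 to 8.24 (median 4.67) in controls. In both, the high control was before_activation 1. Kif26b, a kinesin-related protein, was at 4.60, 5.75, 6.49, 6.80 and 5.76 in tumours and at 2.17 to 2.65 in controls. Among genes with no placed role, Spsb4, an adaptor of a ubiquitin ligase, was at 11.32, 11.06, 4.33, 10.65 and 10.09 in tumours, at 3.19 to 4.48 (median 3.66) in controls and at 2.97 to 5.09 (median 3.59) in month glands, a mean difference of 5.78 (55.0-fold). Tumour 3 was inside the control range and the other 4 tumours more than 4 above every other array.

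**Figure D4:**
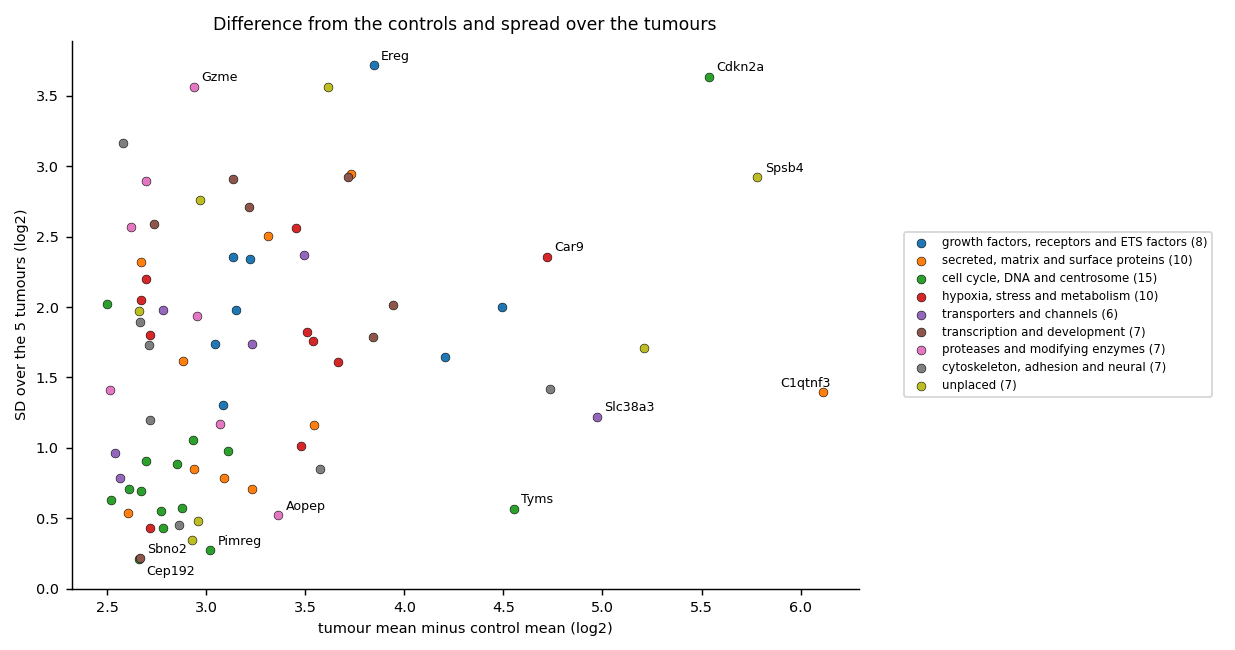
Difference of the tumour mean from the control mean (x axis, log2) against the SD over the 5 tumours (y axis, log2) for the 77 genes, coloured by role with the number of genes in parentheses. Genes of the cell cycle, DNA and centrosome lie low on the y axis (median SD 0.69) apart from Cdkn2a at 3.64 and Tubgcp3 at 2.02.

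The month glands, whose group means were held within 1 of the controls by the selection, still showed small shifts. The median difference of the 77 genes from the controls was 0.08 at 1M, 0.11 at 2M, 0.43 at 3M, 0.14 at 4M and 0.35 at 5M. The value at 3M rested in part on 3M 1, whose own median was 0.84, compared with 0.04 to 0.18 in the other 3M arrays. Without that array the 3M value was 0.21. At 5M, array 5M 3 had a median of 0.53, compared with 0.04 to 0.23 in the other 5M arrays. The mean was above the control mean in 53, 48, 66, 52 and 61 of the 77 genes at 1M to 5M, beside 59.8%, 51.8%, 56.7%, 38.1% and 58.2% of all genes, and at 3M in 59 genes without 3M 1, beside 58.0% of all genes. Over all genes the median difference lay between -0.01 and 0.02 in these months. Single glands went further. Array 3M 1 was at least 2.5 above the controls in 8 genes (C1qtnf3, Inhba, C130071C03Rik, Kif26b, Nkd2, Prss22, Fgfr3 and Padi4), or 10.4% of the 77 beside 1.69% of all genes. It was the highest of the 25 month glands in 23 of the 77 genes, a count not made over all genes. Its summed markers of dividing cells were 18000, compared with 7123 to 11716 in the other 3M arrays, and the part of dividing cells in its levels was not tested. Among controls, before_activation 1 was at least 2.5 above the control mean in 6 genes (C1qtnf3, Ctxn1, Igfbp2, Lrrc15, Tnfrsf11b and Ctnnd2), or 7.79% of the 77 beside 0.56% of all genes. Its summed markers of dividing cells were 4227, compared with 135 to 1546 in the other controls, and its basal and myoepithelial sum of 49710 was the highest of the controls. Array 2M 1, which was high for 3 of the same genes (Lrrc15, Tnfrsf11b and Ctnnd2), had the highest sums of the 2M glands on both lists, 14107 (the others 5314 to 6951) and 57047. Over all genes 1.27% were at least 2.5 above the control mean on 2M 1. Array 4M 1 had a higher basal and myoepithelial sum, 60524, with Lrrc15 at 7.73 and Ctnnd2 at 6.95. Its epidermis and hair markers summed to 55502.5, compared with 409 to 507 in the other 4M arrays. The basal list includes the keratins Krt5 and Krt14, so skin and gland cannot be told apart in the basal sum of 4M 1. The part of dividing, basal or skin cells in the levels of these arrays was not tested.

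Without tumour 3, all remaining tumours were above all controls in 59 genes in place of 39 (11.7% of all genes in place of 9.33%). Without before_activation 1 this held in 46 genes (10.3% of all genes), and without both in 63 (12.6%). All tumours were above all other arrays in 45 genes without tumour 3 (5.19% of all genes) and in 30 without 3M 1 (3.50%), in place of 24 (3.36%). These settings were chosen after the values were seen. A labelling spike-in, Dap, was low (log2 at most 5.94) on 7 arrays, of which 3 were controls and 4 were 5M glands, and at least 10.6 on all others, tumours included. With the high arrays alone 77 genes met both values, 56 of them shared, and 39 of the 77 genes again had all tumours above all controls.

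Close to the limits, Tubgcp3 (2.5005), Prss16 (2.515), Ccp110 (2.520) and Slc16a4 (2.541) were just inside the tumour minimum, and Ninl (2.499), Bcl9 (2.495), Dusp9 (2.494) and Ncs1 (2.491) just outside. For the month limit the largest difference of any month was 0.97 for Aopep, 0.98 for Ier3 and Tyms and 0.99 for Igfbp2, and outside it was 1.02 for Unc5c, Pkmyt1 and Hrob and 1.039 for Phactr1. In all, 549 genes reached the tumour minimum and 15372 stayed within the month limit. Of the 77 genes 35 had other probe sets, 63 in all. Of these, 32 lay below 5 in the tumours and differed from the controls by at most 1.75, so they did not show the differences of the probe sets that stand for the genes. Another 31 had a tumour mean of at least 5. Among these 31, 23 were at least 2.5 above the controls and 23 kept within the month limit. A probe set of Ctnnd2 differed by only 0.62 and that of Nhsl1 with a tumour mean of 5.95 by 0.88. Chromosome 4 carried 10 of the genes (13.0%) and 5.97% of all genes measured.

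The comparison of before_activation with wild_type asks whether these genes differed between transgenic and wild type glands before the oncogene was active, a contrast on which the selection did not draw. In limma none of the 77 genes passed an adjusted p of 0.05, and 0% of all genes did. At an unadjusted p of at most 0.05 in limma there were 12 of the 77 genes (15.6%, 2 higher and 10 lower). Of all genes 5290 passed this limit (29.1%, 575 higher and 4715 lower), also mostly lower. With quantile normalization 7 of the 77 genes and 14.3% of all genes passed. Among probe sets with a mean of at least 5, 2 of 29 and 10.3% did. The count of adjusted calls over all genes depended on the fit. A fit of all 40 arrays called 302 higher and 3158 lower, a mean-variance trend 158 and 3604, and the methods' t-test with Benjamini-Hochberg adjustment 96 and 3360. Of the 77 genes these fits called 0, 1 and 1 higher and 2, 10 and 8 lower. The p-values measure the spread between mice of a group, and 5 arrays per group limit the precision.

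The difference between the control groups was small for most of the 77 genes, with a median of -0.04 (all genes -0.06), and was at least 1 in size in 4. Trib3 was at 8.42, 8.47, 9.46, 7.88 and 8.16 in wild_type 1 to 5 and at 6.82, 6.95, 7.53, 7.33 and 7.19 in before_activation 1 to 5, so that the groups did not overlap (-1.31 ± 0.28, adjusted p = 0.106 in limma). Edil3 was at 4.57, 3.58, 5.71, 6.0 and 6.70 in wild_type and at 3.40, 3.51, 3.68, 3.57 and 3.34 in before_activation, with wild_type 2 inside the range of the other group (-1.81 ± 0.53, adjusted p = 0.106). C1qtnf3 (1.07 ± 0.97, adjusted p = 0.474) and Igfbp2 (1.06 ± 0.70, adjusted p = 0.314) were higher in before_activation through array 1 at 8.25 and 10.20. Among the arrays with a high spike-in the 4 differences were -1.62 for Trib3, -1.08 for Edil3, 1.36 for C1qtnf3 and 0.70 for Igfbp2.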

How the data were processed

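Per the methods, the RNA of each mouse (50 ng) was amplified in 2 rounds, and the arrays were background-corrected and normalized by GCRMA (GeneSpring GX 10.0). The first deposited table holds intensity values made by the authors in this way (linear scale, 45101 probe sets, 2.03 to 144656, array medians 18.96 to 24.3). In the other deposited table the values are log2, that is the log2 of the same summaries minus the median of each probe set over the 40 arrays, and it gave the replicate numbers. Between the tables log2 values deviated by no more than 1.04e-06. The deposited values were used as log2 with no further normalization, filter or offset. The 64 control probe sets were set aside, and of the 45037 others 34945 carried 1 symbol in the platform annotation, 932 several and 9160 none. Over all arrays 52.2% of the tested probe sets had a mean below 5, close to the floor of the summaries.

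The study compared controls with early glands and with tumours to find early markers. Here the 77 genes and the gene lists were chosen with earlier results of these data known. Differences of tumours and months from the controls are therefore given without a test. Other genes of a family, and the comparison of before_activation with wild_type, were tested with limma 3.58.1 (R 4.3.3), 1 fit per pair of groups, two-sided, Benjamini-Hochberg adjustment over 45037 probe sets, after the script was tested on simulated data. Array numbers, not read depth, limit the precision. The naming rule took the 25 genes with the largest difference, up to 6 per gene list, the 4 on either side of each limit, the 4 most and 4 least variable over tumours and the 5 with the highest single gland, which named 50 of the 77 genes. Other names, the 9 roles and the printed promoters were chosen after values were seen. Alternatives were other limits, medians, control groups, probe set choices, quantile normalization, a floor of 5, a replicate block, other variance models and each array left out. The study used a t-test with a 5-fold change and an adjusted p of 0.01, called the methods' t-test here and given at 0.05. Promoters came from RefSeq tables, and no protein sequences were used here.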

Additional observations from a re-analysis of the deposited data

Results flagged for a closer look

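In groups of 5 arrays, a single array was listed where its gap to the nearest of the other 4 took more than 0.71 of the range of the group (Dixon's critical value). For normally distributed values chance flags about 1 in 20 groups (5%). Per group 9 to 20 of the 77 genes passed this limit (9 in the tumours, 20 at 3M). The flags were not counted over all genes, so it cannot be said whether these counts are particular to the 77 genes. Outside the tumours only those with a range of at least 2.5 are listed. All values are log2 intensities.

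Among the tumours, 7 of the 9 genes were set apart by tumour 3. It was low for Spsb4 (4.33, the others 10.09 to 11.32), Trib3 (8.73, the others 11.79 to 12.93), Nt5dc2 (3.42, the others 7.69 to 8.78), Slc30a2 (4.21, the others 7.60 to 8.58), 2810001G20Rik (3.31, the others 6.86 to 8.13) and Acox2 (3.95, the others 7.46 to 8.46). It was high for Tubgcp3 (13.14, the others 8.42 to 9.20). Tumour 1 was low for Nkd2 (7.04, the others 8.59 to 8.97) and high for Slc38a3 (10.59, the others 7.40 to 8.21).

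Gland array 3M 1 was high for 8 genes. It was at 10.14 for Lrrc15 (the others 7.30 to 8.04), 9.51 for Prss22 (6.55 to 7.19), 7.98 for Nkd2 (5.39 to 5.57) and 8.08 for C1qtnf3 (3.09 to 3.32). It was at 7.92 for Inhba (2.58 to 2.67), 6.39 for Padi4 (2.42 to 2.88), 5.54 for Kif26b (2.26 to 2.30) and 5.37 for C130071C03Rik (2.22 to 2.29).

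Control array before_activation 1 was high for Lrrc15 (12.05, the others 7.29 to 7.58), C1qtnf3 (8.25, the others 2.86 to 4.08) and Ctxn1 (6.28, the others 2.05 to 2.28). Array 2M 1 was high for Lrrc15 (11.24, the others 7.45 to 8.21) and Ctnnd2 (7.97, the others 4.15 to 4.85), and 2M 3 was low for Plod2 (5.36, the others 7.61 to 8.09). C1qtnf3 was also high in 1M 5 (6.05, the others 3.15 to 3.41) and 4M 2 (5.87, the others 3.05 to 3.82). Ankrd37 was high in wild_type 2 (5.17, the others 2.56 to 2.61) and 5M 1 (5.81, the others 2.56 to 3.16), and Ttll3 in 5M 1 (6.73, the others 4.16 to 4.61).

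Of the 10092 probe sets with no symbol or several, 85 met both values of the selection, with differences of 2.51 to 5.66, and in 58 of them all 5 tumours lay above all 10 controls. No gene is named for them here.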

How the results depend on the processing

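The number of selected genes, 77, depended most on the limits: 222 genes met a tumour minimum of 2, 39 a minimum of 3, 23 a month limit of 0.5 and 160 one of 1.5. Group medians gave 132 genes (64 shared with the 77) and the probe set with the highest variance 135 (70 shared). Without 1 array the number was 69 to 125, with 125 without tumour 3 (71 shared). The other settings gave 52 to 84 genes, and 7 of the 77 genes met the values under all 13 other settings and 31 with each of the 40 arrays left out. None of the 50 named genes reversed its difference, which the tumour minimum made unlikely from the start. With values below 5 set to 5, the difference of 9 of them moved by at least their SD over tumours, and the lowest was 0.87. With the mean of all probe sets of a gene 7 moved. The counts of genes with no overlap were repeated only without tumour 3, before_activation 1 and 3M 1, chosen after the values were seen. All tumours were above all controls in 59, 46 and 39 genes without each of these in turn, and in 63 without tumour 3 and before_activation 1. They were above all other arrays in 45, 26 and 30 genes, and in 55 without tumour 3, before_activation 1 and 3M 1.

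For before_activation against wild_type limma called 0 genes higher and 0 lower. A fit of all 40 arrays gave 302 and 3158, a mean-variance trend 158 and 3604, the methods' t-test 96 and 3360, and 1 array left out 0 and 0 to 2; the cause was not tested. Same-numbered arrays of these groups had deviations that correlated at 0.05 to 0.60, not all over 0.1, and with the tumours at -0.08 to 0.15, so the number was not taken as a pairing. With the replicate number as a block 0 genes were called higher and 0 lower, and for tumours against controls 3550 were higher and 3718 lower, in place of 3540 and 3743. The tumour counts kept within 1.5 times under all other settings. Near the floor of the array intensities are dim and a low level has no firm lower end: with values below 5 set to 5, 60 genes met the rule, 40 of them shared.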
